A study of Mus musculus with 4 samples.

Results

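Nuclear receptors are transcription factors that share a zinc-finger DNA-binding domain and a ligand-binding domain. The 38 genes described here are members of this superfamily other than the estrogen-related receptors, Nr0b1, Nr0b2 and Nr5a2, taken by gene symbol from count tables of 23282 rows. They cover receptors for thyroid hormone, retinoids, fatty acids, oxysterols, bile acids, vitamin D and steroids, the REV-ERB and ROR receptors of the circadian clock, and receptors without a settled ligand. Each of the 38 had its own row, 37 had at least 1 count, and 27 had enough counts to be tested. In the pancreas, nuclear receptors are known for linking hormone and lipid signals to enzyme secretion, growth and inflammation. Many of them bind DNA as pairs with a retinoid X receptor, and most recognise variants of the core motif AGGTCA. The estrogen-related receptors bind an extended form of this motif, as single proteins or as pairs, with no known natural ligand.

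The cells were primary acinar cells of the pancreas from C57BL/6J mice, kept in medium with serum, antibiotics, a trypsin inhibitor and 25 ng/ml recombinant human epidermal growth factor. They received an adenovirus that encoded either green fluorescent protein (GFP) or ERRγ, the product of Esrrg, each at a multiplicity of infection of 100, and were collected after 36 h. Both groups thus carried a virus and growth factor, and there was no uninfected group. Each group had 2 libraries, read from transcript ends, with totals of 10.11 to 11.01 M counts. The labels name no separate animals or cultures behind libraries 1 and 2, so that the p-values cover only the spread between these libraries, which may be technical. Levels are given in CPM, counts per library size in M after scaling by TMM, edgeR's trimmed mean of M-values, with the mean ± SD over n = 2. A log2 ratio is the fitted log2 fold change of ERRγ over GFP. A fit that left out a library kept only 1 in that group, and its spread came from the other pair alone. Calls made or lost in such fits therefore cover no spread within the group of the library left out. Because a transcript is read once near its end, CPM were compared between genes without division by length.

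Esrrg was at 129.5 CPM in ERRγ library 1, at 1282 CPM in ERRγ library 2, and at 8.79 and 9.59 CPM with GFP. The ERRγ pair thus differed 9.9-fold in the gene that the virus carried. The labelled cell type was little seen in the transcripts: 16 acinar markers summed to 52.4 to 117 CPM, with Ptf1a at 0 in all libraries, against 9875 to 14130 CPM for 12 ductal markers. The summed ductal markers lay at 9875 and 11710 CPM in ERRγ cells against 13850 and 14130 CPM in GFP cells. Leukocyte markers (12 genes, Cd3e at 0) lay at 50.9 and 73.8 against 97.3 and 94.8 CPM, mesothelial markers (6 genes, Upk3b at 0) at 325.5 and 386.6 against 446.4 and 532.9 CPM, and adipocyte markers (8 genes, Lep and Plin1 at 0 and 6 genes in all under 10 counts) at 18.6 and 34.5 against 13.6 and 16.4 CPM. Most of the leukocyte sums was Cd14 alone, at 42.1 and 58.3 against 86.1 and 81.0 CPM. Csf1r of that list lay the other way, at 3.74 and 7.10 against 2.45 and 3.32 CPM. Nearly all of the mesothelial sums was Msln, at 324.2 and 384.8 against 442.7 and 531.5 CPM. Endothelial markers (10 genes) lay at 21.3 and 22.1 against 20.5 and 10.3 CPM. The sums for acinar, fibroblast and islet markers overlapped between the groups. The part of these markers in the results below was not tested, and fewer cells of a type cannot be told apart from less RNA per cell.

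Of the 27 receptors tested, the progesterone receptor gene Pgr and the germ cell nuclear factor gene Nr6a1 rose with ERRγ, and the fatty acid receptor gene Ppard fell. The other 24 did not pass edgeR's quasi-likelihood test at a Benjamini-Hochberg adjusted p of 0.05 over all 13070 genes tested. The 3 calls are 11.1% of the receptors tested, and 6.84% of all genes tested passed (5.06% as rises, 1.78% as falls). Pgr entered the test only through the group in which it was high, so that these shares describe the receptors and support nothing about them as a class. The groups did not overlap in 15 of the 27 receptors, which is 55.6%, beside 54% of all genes tested. The median log2 ratio of the tested receptors was 0.22, against −0.01 for all genes tested.

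**Figure D1:**
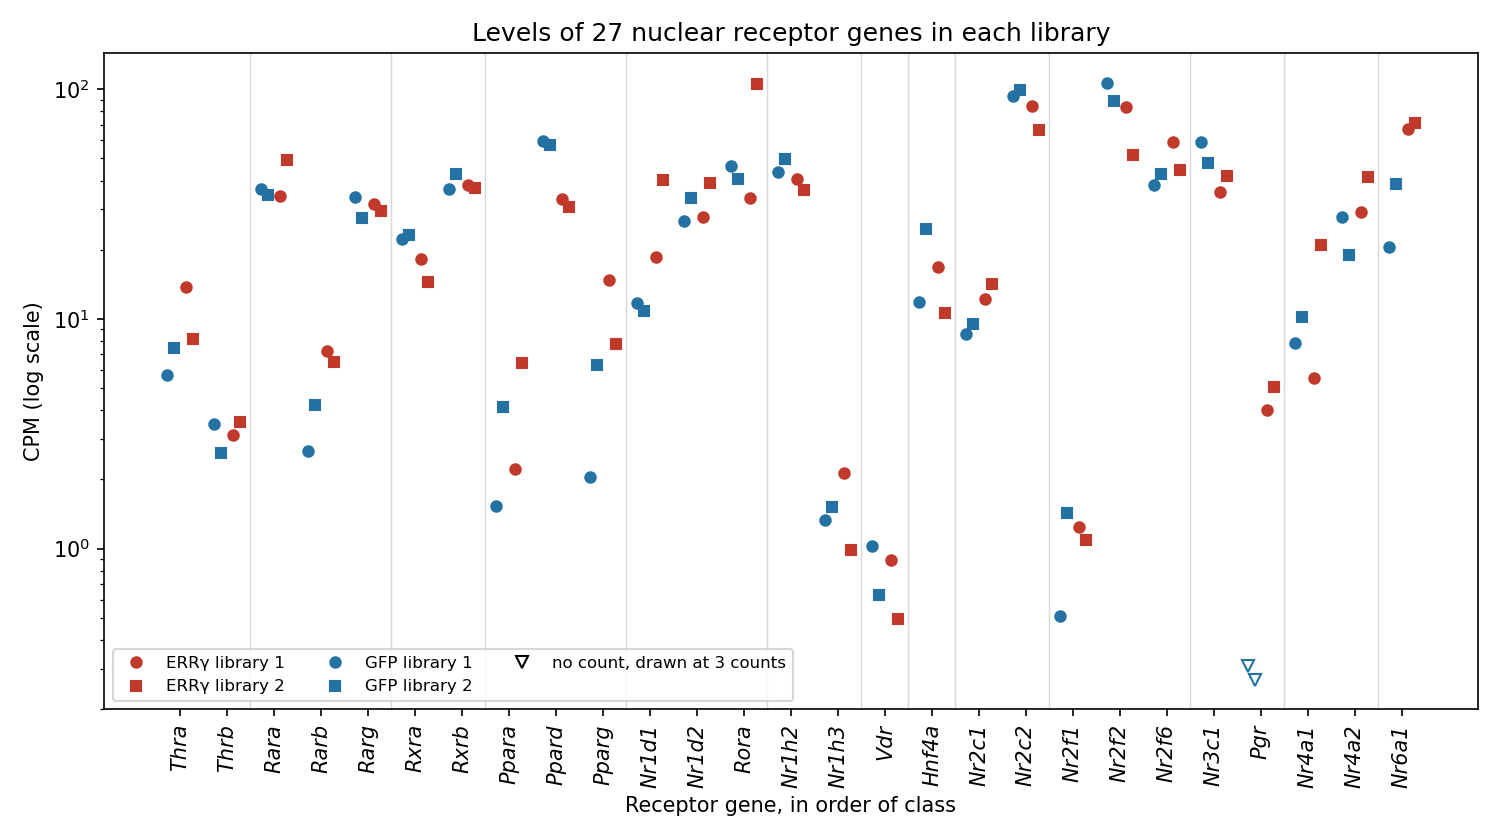
Level of the 27 tested receptor genes in each library, in CPM on a log axis, with circles for library 1 and squares for library 2; open triangles mark libraries with no count, drawn at the level of 3 counts. Pgr had no count in either GFP library, and Nr6a1 (67.4 and 71.2 CPM with ERRγ) and Ppard (33.4 and 30.8 CPM with ERRγ) lay apart from their GFP libraries.

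Pgr encodes the progesterone receptor, a steroid-activated receptor known for its role in the uterus, ovary and mammary gland. It had 45 and 51 counts in ERRγ libraries 1 and 2 and no count in either GFP library. Its level was thus 4.01 and 5.03 CPM with ERRγ, where 3 counts in the GFP libraries would be 0.307 and 0.269 CPM. Against 3 counts in each GFP library the level was at least 15.7-fold higher with ERRγ (adjusted p = 0.00659). Both ERRγ libraries held Pgr at like levels although they differed 9.9-fold in Esrrg. The call ended without GFP library 1 (adjusted p = 0.0684) and without GFP library 2 (0.0591), in fits where the spread comes from the ERRγ pair alone. In those fits 92 genes rose and 7 fell, and 119 rose and 20 fell, in the whole table, against 661 and 233 with all libraries. Pgr lies on chromosome 9 from 8899833 to 8968611, plus strand (GRCm38, GENCODE M21), and no annotated gene overlaps it.

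Nr6a1 encodes germ cell nuclear factor, an orphan receptor known as a repressor of pluripotency and germ cell genes in early development. It had 756 and 722 counts in the ERRγ pair against 202 and 430 in the GFP pair. In CPM this was 67.4 and 71.2 against 20.6 and 38.5, so that the groups did not overlap and the GFP libraries were the ones that differed. The rise was 2.33-fold (log2 ratio 1.22, SE 0.26, adjusted p = 0.0322). With GFP, Nr6a1 was the twelfth most abundant of the 38 receptors, and with ERRγ it ranked 2, behind Nr2c2 (75.6 ± 13.2 CPM) and close to Rora (69.3 ± 50.5 CPM). These 3 levels did not differ beyond their spread. Without GFP library 1 the log2 ratio of Nr6a1 was 0.84 and the call ended (adjusted p = 0.15), whereas without GFP library 2 it was 1.74 (0.0227). The gene lies on chromosome 2 from 38723370 to 38927688, minus strand, and has noncoding genes and a pseudogene within its span, among them Mir181a-2 and Mir181b-2 on the opposite strand, none of which shares exon bases with it.

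Ppard encodes PPARδ, a receptor activated by fatty acids that is found in most tissues and controls genes of fatty acid use. It had 375 and 312 counts in the ERRγ pair against 585 and 638 in the GFP pair, or 33.4 and 30.8 CPM against 59.8 and 57.2 CPM. Both pairs were tight, and the groups lay far apart by comparison. The fall was 1.82-fold (log2 ratio −0.86, SE 0.14, adjusted p = 0.0115). With GFP it was the third most abundant receptor, and with ERRγ it ranked 12. The log2 ratio lay between −0.93 and −0.81 whichever library was left out, but the call ended without GFP library 1 (adjusted p = 0.151) and without GFP library 2 (0.107). Ppard lies on chromosome 17 from 28232700 to 28301474, plus strand, with no overlapping gene.

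The start regions of these 3 genes are shown because their transcripts were the ones that changed. RefSeq windows on GRCm38.p6 run from 250 bases before to 50 bases after a start site, 300 bases in all, and are given 5′ to 3′ on the gene's strand. Capitals mark the core motif AGGTCA or its reverse complement TGACCT. Nr6a1 has an outer and an inner start window.
Pgr, chr9:8899583-8899882, plus strand: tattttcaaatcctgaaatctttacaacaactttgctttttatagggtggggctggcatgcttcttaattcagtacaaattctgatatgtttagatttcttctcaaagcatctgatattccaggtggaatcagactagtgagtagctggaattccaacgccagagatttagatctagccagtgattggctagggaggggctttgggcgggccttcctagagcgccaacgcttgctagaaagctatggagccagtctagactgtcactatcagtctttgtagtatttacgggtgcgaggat
Nr6a1 outer, chr2:38926412-38926711, minus strand: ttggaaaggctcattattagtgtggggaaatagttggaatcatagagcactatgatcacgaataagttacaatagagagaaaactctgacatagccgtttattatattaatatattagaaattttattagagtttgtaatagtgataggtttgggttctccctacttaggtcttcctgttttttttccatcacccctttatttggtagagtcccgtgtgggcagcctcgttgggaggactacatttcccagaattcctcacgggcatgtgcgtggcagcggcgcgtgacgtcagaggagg
Nr6a1 inner, chr2:38784466-38784765, minus strand: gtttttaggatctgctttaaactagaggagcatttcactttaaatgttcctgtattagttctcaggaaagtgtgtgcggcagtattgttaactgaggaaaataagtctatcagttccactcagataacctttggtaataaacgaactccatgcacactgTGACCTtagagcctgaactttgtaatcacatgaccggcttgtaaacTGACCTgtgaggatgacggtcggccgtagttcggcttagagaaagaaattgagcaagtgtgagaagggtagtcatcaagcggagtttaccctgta
Ppard, chr17:28232504-28232803, plus strand: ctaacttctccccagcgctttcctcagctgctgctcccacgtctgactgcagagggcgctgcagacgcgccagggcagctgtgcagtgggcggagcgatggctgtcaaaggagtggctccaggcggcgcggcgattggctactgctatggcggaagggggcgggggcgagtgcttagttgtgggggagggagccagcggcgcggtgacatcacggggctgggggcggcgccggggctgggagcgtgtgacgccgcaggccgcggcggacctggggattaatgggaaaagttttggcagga
Only the inner window of Nr6a1 among these 4 held the core motif, as 2 reverse complements whose first bases lie at −91 and −45 from the start site. The extended element TNAAGGTCA, searched on both strands and overlapping the core motif, was in none of the 4. Transcript-end reads do not say from which of its start sites an Nr6a1 transcript came. A window was found for 35 of the 38 receptors, with 51 windows in all. The core motif was in a window of 9 of these 35 (25.7%), namely Nr1d2, Nr1h4, Nr6a1, Pparg, Rara, Rarg, Rxra, Rxrg and Thrb, against 18.1% of the 27025 genes with a window. The extended element was in none of the 35 and in 1.43% of all genes with a window. All genes together had 32851 windows. The receptors thus had more windows for each gene, and the shares by gene do not rest on like numbers of windows. These are matches of letters in short windows, not binding sites.

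**Figure D2:**
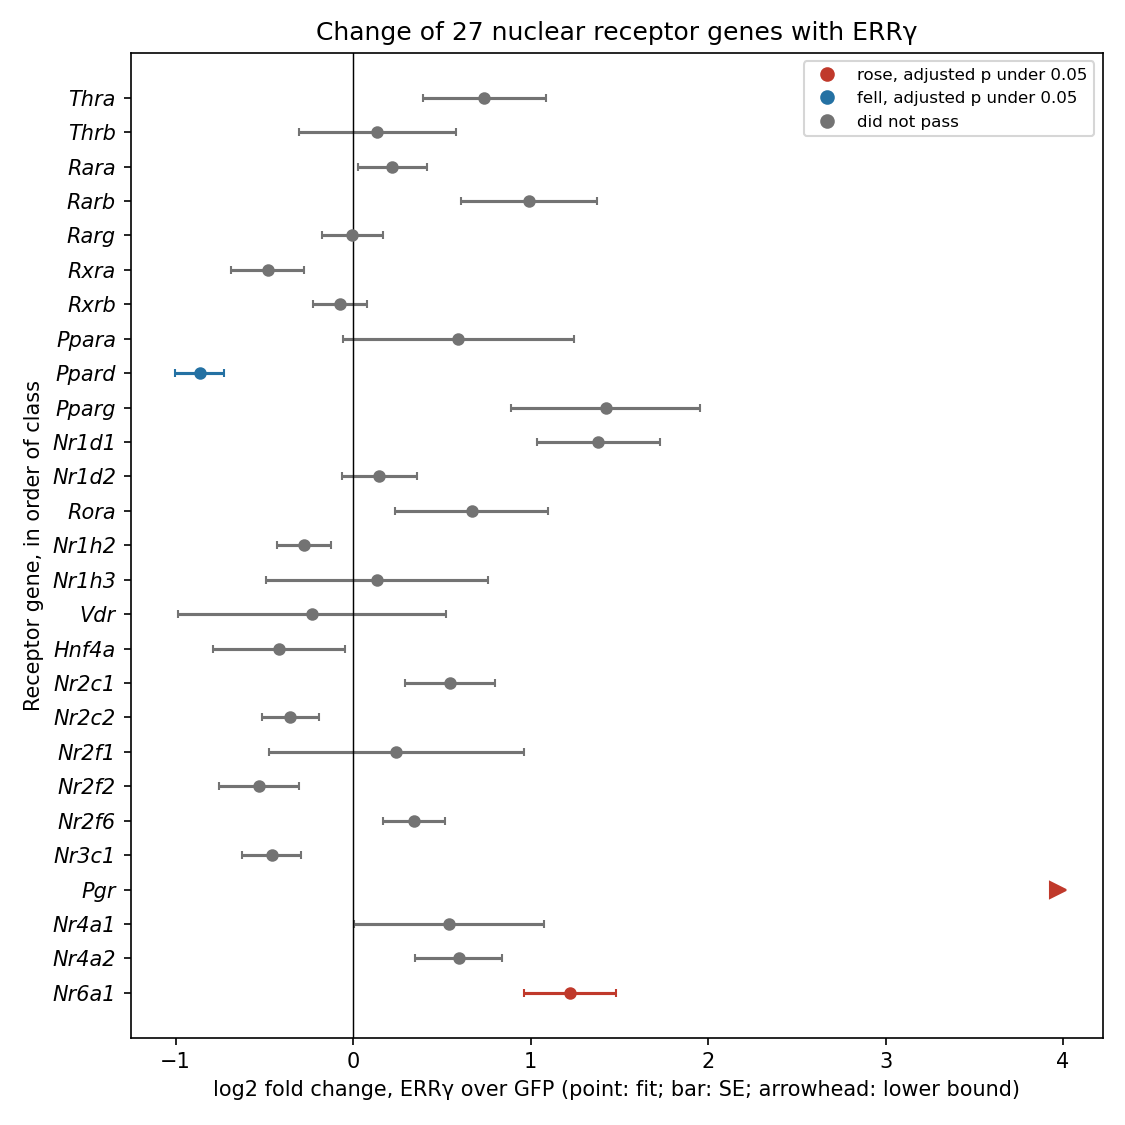
Log2 ratio of each tested receptor gene with ERRγ over GFP, with its SE as a bar; colour marks genes with an adjusted p under 0.05, and the arrowhead for Pgr is the lower bound against 3 counts in each GFP library. Ppard lies at −0.86 with an SE of 0.14, while Pparg at 1.42 (SE 0.53) and Nr1d1 at 1.38 (SE 0.35) lie beyond Nr6a1 at 1.22 (SE 0.26) with wider bars and did not pass.

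Among the PPARs, the fall of Ppard met higher values of Pparg, which encodes the receptor known for fat cell differentiation. Pparg had 165 and 79 counts in the ERRγ pair against 20 and 70 in the GFP pair. Its CPM of 14.7 and 7.79 lay above those of 2.04 and 6.28 with GFP, but the pairs were wide, and the difference did not pass (log2 ratio 1.42, SE 0.53, adjusted p = 0.16). The log2 ratio was 1.80 without ERRγ library 2 and lay between 0.84 and 2.45 without each of the other libraries. Ppara, the receptor of fasting metabolism in liver, lay at 2.23 and 6.41 CPM against 1.53 and 4.12 CPM, with the number 2 library higher in both groups (log2 ratio 0.59, SE 0.65, adjusted p = 0.64). Pparg made up 29.2% and 17.3% of the counts of the 3 PPAR genes in ERRγ libraries 1 and 2 (exact 95% binomial intervals 25.5 to 33.1 and 14 to 21.1), against 3.23% and 9.28% with GFP (1.98 to 4.94 and 7.31 to 11.6). Ppard made up 66.4% and 68.4% with ERRγ (62.3 to 70.3 and 63.9 to 72.7) and 94.4% and 84.6% with GFP (92.2 to 96 and 81.8 to 87.1). The intervals of the 2 groups did not overlap for either gene, but for Pparg those of the libraries within each group did not overlap either. Those of Ppard within the GFP pair also lay apart. They cover counting error only, since reads without molecular identifiers are not independent molecules. Fat cells are a source of Pparg, and the 8 adipocyte markers summed to 18.6 and 34.5 CPM with ERRγ against 13.6 and 16.4 CPM with GFP. Of these markers Fabp4 passed as a rise, Lipe did not pass (adjusted p = 0.563), and the other 6 were too low to test. Lep and Plin1 were at 0 in all libraries, Cidec (6 and 2), Cfd (1 and 2) and Retn (0 and 3) had counts with ERRγ alone, and Adipoq had 0 and 4 against 3 and 0. The part of fat cells in the Pparg values was not tested.

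**Figure D3:**
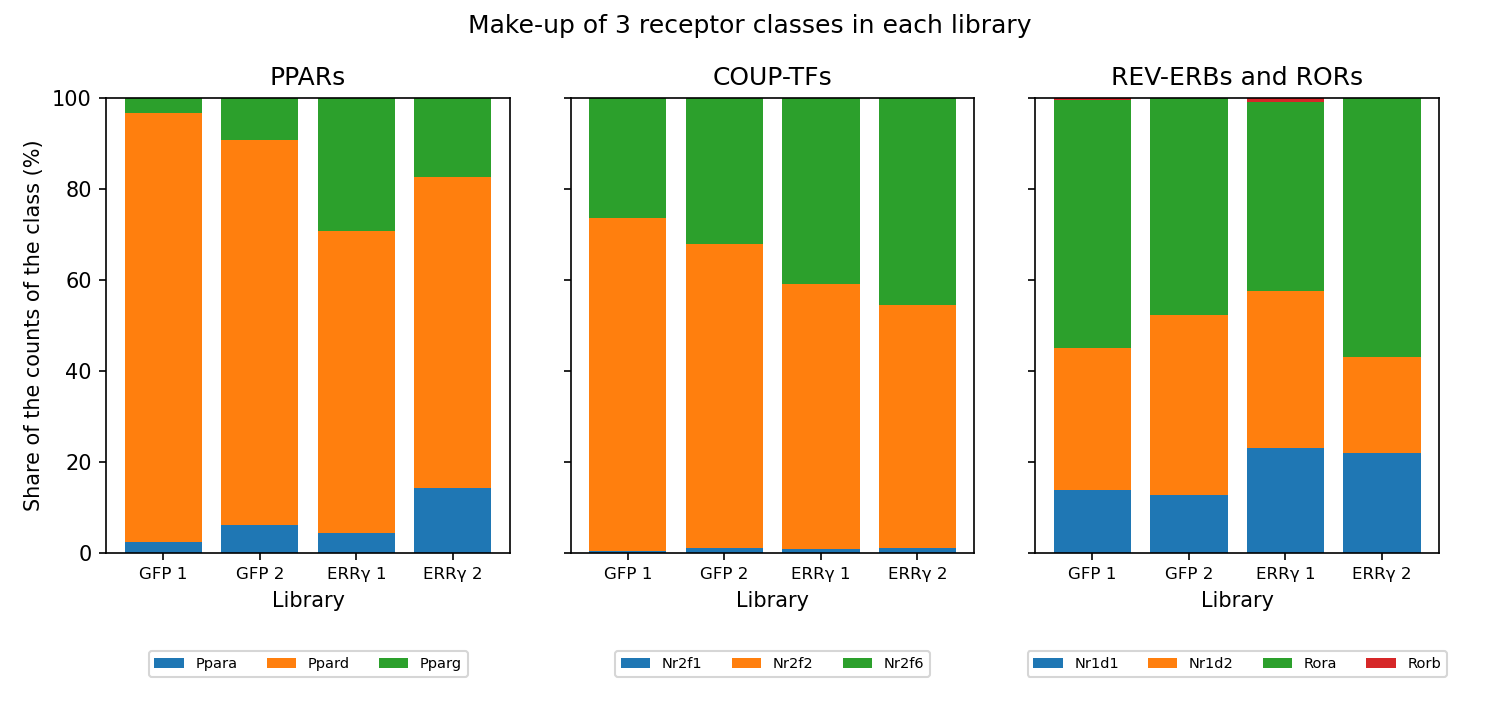
Share of counts, in percent, that each member took within the PPAR, COUP-TF and REV-ERB and ROR genes, 1 bar for each library. Pparg took 29.2% and 17.3% of PPAR counts with ERRγ against 3.23% and 9.28% with GFP, and Nr2f6 took 41% and 45.6% of COUP-TF counts against 26.3% and 32.2%.

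Of the receptors for thyroid hormone and retinoids, none passed the test. Thra, which encodes thyroid hormone receptor α, lay at 13.8 and 8.19 CPM in ERRγ cells against 5.72 and 7.44 CPM in GFP cells (log2 ratio 0.74, SE 0.35, adjusted p = 0.249). Without ERRγ library 2 the log2 ratio was 1.06, and without ERRγ library 1 it was 0.31. Thrb, for the β receptor, was near 3 CPM in all libraries. Rarb encodes retinoic acid receptor β, which is itself a known target of retinoic acid. It lay at 7.22 and 6.51 CPM in ERRγ cells against 2.66 and 4.21 CPM in GFP cells, groups that did not overlap (log2 ratio 0.99, SE 0.39, adjusted p = 0.174), and it did not pass in any fit that left out a library. Rara (34.1 and 49.0 CPM with ERRγ, 36.7 and 34.6 CPM with GFP) and Rarg (means of 30.6 ± 1.44 and 30.7 ± 4.53 CPM) were more abundant than Rarb in every library, and neither passed. The shared partner receptor gene Rxra lay lower with ERRγ, at 18.2 and 14.4 CPM against 22.4 and 23.1 CPM, without passing (log2 ratio −0.48, SE 0.21, adjusted p = 0.215). Rxrb was at 37.8 ± 0.723 and 39.7 ± 4.30 CPM. Rxrg was without a count in all 4 libraries, and 3 counts would be 0.267 to 0.307 CPM.

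Thra and its neighbour Nr1d1 need care, because their ends overlap on opposite strands of chromosome 11, with exon bases shared between 98768157 and 98768419. Whether the counting used strand is not given in the sources used here, and without strand, transcript-end reads in this stretch cannot be assigned to either gene. Nr1d1 encodes REV-ERBα, a heme-binding repressor of the circadian clock. It lay at 18.6 and 40.4 CPM in ERRγ cells against 11.8 and 10.8 CPM in GFP cells, apart in all libraries and highest in ERRγ library 2. Its log2 ratio of 1.38 (SE 0.35) was just short of the threshold (adjusted p = 0.0556). It passed in 4 of 8 other settings with all libraries, among them library totals (adjusted p = 0.0367) and DESeq2 (0.00286), and not with limma-voom (0.113). Of the 4 fits that left out a library it passed in 1, without ERRγ library 1 (log2 ratio 1.84, adjusted p = 3.64e-12). It did not pass without ERRγ library 2 (0.72, adjusted p = 0.0856), GFP library 1 (1.44, 0.302) or GFP library 2 (1.32, 0.283). The share of Nr1d1 among the counts of the 4 REV-ERB and ROR genes was 23.1% and 21.9% with ERRγ (exact 95% intervals 20.4 to 26 and 20 to 23.8) and 13.8% and 12.8% with GFP (11.5 to 16.3 and 10.7 to 15.1), alike within each pair although the CPM of the ERRγ pair were not.

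Nr1d2, for REV-ERBβ, stood at 33.4 ± 7.90 CPM in ERRγ cells against 30.1 ± 4.78 CPM in GFP cells (log2 ratio 0.15, adjusted p = 0.725). Rora encodes RORα, an activator that competes with the REV-ERBs for the same DNA elements. It had 377 and 1064 counts in the ERRγ pair against 455 and 452 in the GFP pair, so that 1 library set its mean. The log2 ratio was 0.67 (SE 0.43, adjusted p = 0.4), 1.27 without ERRγ library 1 and −0.37 without ERRγ library 2. Rorb had 7, 0, 4 and 1 counts in ERRγ libraries 1 and 2 and GFP libraries 1 and 2 and was not tested.

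The other lipid and xenobiotic sensors did not pass the test or were too low to enter it. Nr1h2, for the widely expressed oxysterol receptor LXRβ, lay at 40.7 and 36.3 CPM in ERRγ cells against 43.5 and 49.8 CPM in GFP cells (log2 ratio −0.28, SE 0.15, adjusted p = 0.317). Nr1h3, for LXRα, was at 1.56 ± 0.815 and 1.43 ± 0.138 CPM. The bile acid receptor gene Nr1h4 (5 and 7 counts with ERRγ, 6 and 3 with GFP), the pregnane X receptor gene Nr1i2 (12 and 2, 7 and 9) and the constitutive androstane receptor gene Nr1i3 (0 and 1, 1 and 1) were too low to test. The vitamin D receptor gene Vdr had 10 and 5 counts against 10 and 7, for which a difference was not detectable at this depth (log2 ratio −0.23, SE 0.75, adjusted p = 0.897). Hnf4a, which encodes a factor of liver, gut and pancreatic epithelium, differed more between the GFP libraries (11.9 and 24.7 CPM) than between the groups (16.8 and 10.7 CPM with ERRγ, log2 ratio −0.41, SE 0.37, adjusted p = 0.558). Its log2 ratio was −0.78 without ERRγ library 1 and 0.21 without GFP library 2. Hnf4g had 9 and 6 counts against 7 and 5.

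The most abundant receptors with GFP were the orphan receptors Nr2f2 and Nr2c2, and neither passed the test. Nr2f2 encodes COUP-TFII, a regulator of mesenchymal and vascular development, and lay at 83.5 and 51.8 CPM in ERRγ cells against 107 and 89.0 CPM in GFP cells. The groups did not overlap (log2 ratio −0.53, SE 0.22, adjusted p = 0.207). Without ERRγ library 1 the log2 ratio was −0.92, and without ERRγ library 2 it was −0.23. Summed fibroblast and stellate markers, another place where COUP-TFII is known, were 928.5 and 679 CPM against 1128 and 697.7 CPM. Nr2f6, a relative with a repressor role in immune cells, had values on the other side, with 58.8 and 44.3 CPM against 38.2 and 42.9 CPM (log2 ratio 0.35, SE 0.17, adjusted p = 0.285). Its log2 ratio was 0.53 without ERRγ library 2. Nr2f6 therefore took 41% and 45.6% of the counts of the 3 COUP-TF genes with ERRγ (exact 95% intervals 38.6 to 43.4 and 42.4 to 48.8) and 26.3% and 32.2% with GFP (24 to 28.7 and 29.8 to 34.6). The intervals of the GFP pair did not overlap each other. Nr2f1 was near 1 CPM in both groups.

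Nr2c2, for testicular receptor TR4, lay at 84.9 and 66.2 CPM in ERRγ cells against 93.6 and 99.4 CPM in GFP cells (log2 ratio −0.35, SE 0.16, adjusted p = 0.23). Without ERRγ library 1 the log2 ratio of Nr2c2 was −0.54. Its partner Nr2c1, for TR2, lay at 12.2 and 14.2 CPM against 8.58 and 9.50 CPM (log2 ratio 0.54, SE 0.25, adjusted p = 0.248). The groups did not overlap for either gene, with Nr2c2 lower and Nr2c1 higher in the ERRγ libraries. Nr2e3, a photoreceptor gene, had 4 counts in ERRγ library 2 and none elsewhere. Exons of Nr2c2, Nr2f6 and Rarb overlap those of the coding genes Mrps25, Ocel1 and Top2b on the other strand, and their counts could include reads of these neighbours.

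Of the steroid receptors other than Pgr, only the glucocorticoid receptor gene Nr3c1 had enough counts to test. It lay at 35.6 and 41.7 CPM in ERRγ cells against 58.8 and 47.6 CPM in GFP cells, apart in all libraries (log2 ratio −0.46, SE 0.17, adjusted p = 0.147). Without ERRγ library 2 its log2 ratio was −0.58. With GFP it was the fourth most abundant receptor. The estrogen receptor genes Esr1 (3 and 1 counts with ERRγ, 5 and 3 with GFP) and Esr2 (2 and 2, 0 and 3) were near the limit of 3 counts, and so was the mineralocorticoid receptor gene Nr3c2 (4 and 0, 2 and 0). Estrogen receptor α is a known activator of Pgr in reproductive tissues, and its transcript had 3 counts and 1 count in the libraries that held Pgr. The part of this receptor in the Pgr values was not tested.

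The NR4A receptors are encoded by immediate early genes and act without a known ligand. Nr4a2 lay at 29.1 and 41.3 CPM in ERRγ cells against 27.8 and 18.9 CPM in GFP cells (log2 ratio 0.59, SE 0.24, adjusted p = 0.195). Without ERRγ library 1 its log2 ratio was 0.83. Nr4a1 had 62 and 212 counts in the ERRγ pair against 77 and 114 in the GFP pair. Only ERRγ library 2 was high, and the log2 ratio of 0.54 (SE 0.54, adjusted p = 0.6) became 1.21 without ERRγ library 1 and −0.715 without ERRγ library 2. Nr4a3 had 0 and 13 counts against 6 and 1. A list of 18 other immediate early genes summed to 2381 CPM in ERRγ library 1, 7198 in ERRγ library 2, and 3366 and 3610 with GFP. The same library stood apart there, and the part of this difference in the NR4A values was not tested. In that list Klf4, a zinc-finger factor, was the 1 gene of 18 past the threshold, at 147 and 312 CPM in ERRγ cells against 44.6 and 56.5 CPM in GFP cells (log2 ratio 2.18, adjusted p = 0.00896; 1.53 without ERRγ library 2). Its call ended without GFP library 1 (adjusted p = 0.146) and without GFP library 2 (0.0832).

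Some receptors differed widely between the 2 libraries of a group. A gap of at least 1 on the log2 scale between ERRγ libraries 1 and 2 was seen in 4 of 27 tested receptors (14.8%; Ppara, Nr1d1, Rora and Nr4a1, all higher in library 2) and in 6.5% of all genes tested. Between the GFP libraries it was seen in 3 of 27 (11.1%; Ppara, Pparg and Hnf4a, all higher in library 2) and in 3.83% of all genes. Genes of like level were not compared.

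**Figure D4:**
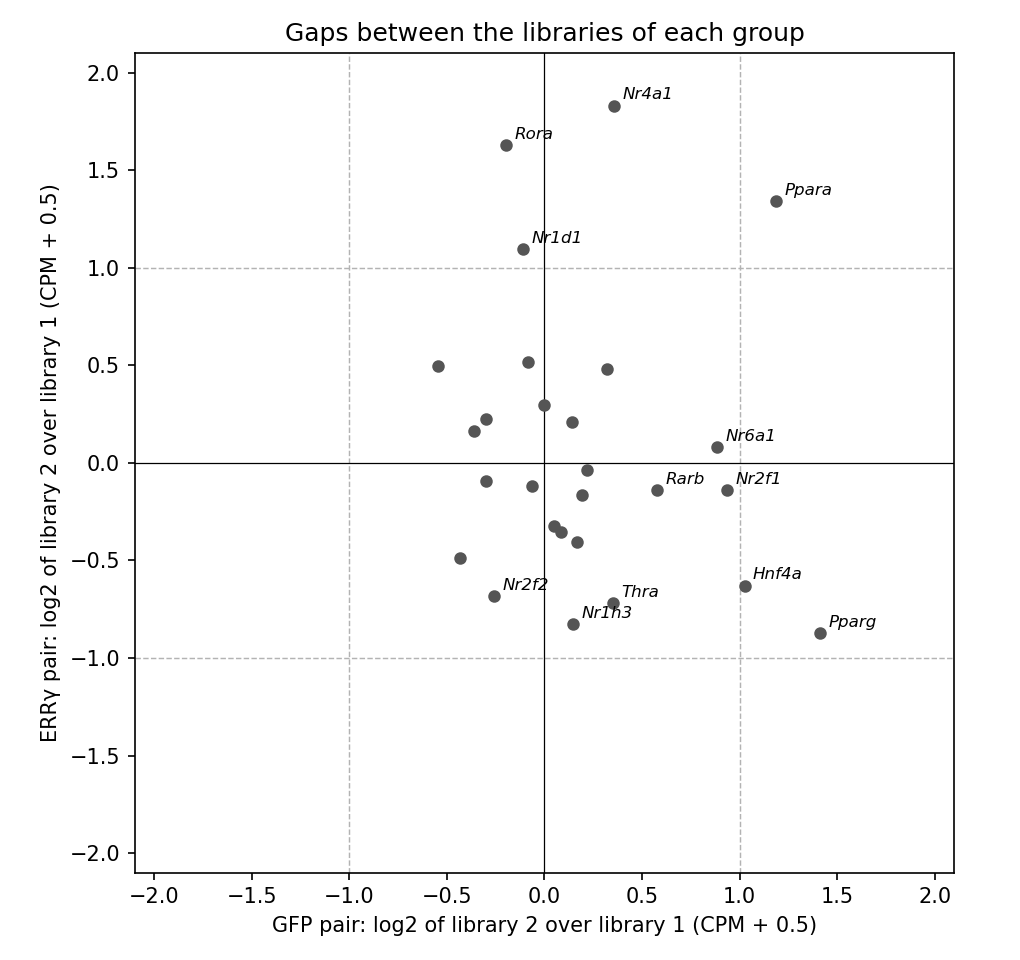
Log2 of library 2 over library 1 (CPM + 0.5) for each tested receptor, with the GFP pair on the x axis and the ERRγ pair on the y axis; dashed lines mark a gap of 1. Nr4a1, Rora and Nr1d1 lay above the upper dashed line while their GFP gaps were small, Pparg and Hnf4a had GFP gaps above 1, and Ppara had both.

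Known targets and partners of these receptors, in 14 lists of 219 genes, held 156 tested genes, of which 13 rose and 4 fell. This is 10.9%, beside the 6.84% of all genes tested, and the median log2 ratio was 0.28. Of the 17 calls 5 (Nr0b2, Dppa3, Myb, Fabp4 and Scnn1a) entered the test only through the ERRγ group, in which they were high, so that this share and the counts for their lists are a description only. In the list of retinoid handling and retinoic acid receptor targets 3 of 15 tested genes rose. Tgm2, which encodes tissue transglutaminase, a textbook gene of the retinoic acid response, went from 68.7 and 72.2 CPM with GFP to 929 and 934 CPM with ERRγ, a 13.2-fold rise (log2 ratio 3.72, SE 0.15, adjusted p = 5.28e-05). It was as high in ERRγ library 1 as in library 2, and the call held without any single library. Cyp26b1, which degrades retinoic acid, had 194 and 198 counts against 39 and 16, a 6.85-fold rise (adjusted p = 0.0102; log2 ratio 2.78, 3.67 without GFP library 1, and 2.20 with the call ended, adjusted p = 0.057, without GFP library 2). Fabp5, a carrier of fatty acids and retinoic acid to PPARδ, rose 2.15-fold to 35.0 ± 3.77 CPM (adjusted p = 0.0183, and 0.101 and 0.155 without GFP library 1 and GFP library 2). The summed list was 1708 and 1604 CPM with ERRγ against 798.1 and 917.7 CPM, mostly through Tgm2.

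In the list of PPAR targets 3 of 17 tested genes fell and 1 rose. The secreted lipase inhibitor gene Angptl4, known to respond to PPARδ, fell 2.51-fold, from 98.5 ± 2.58 to 39.3 ± 4.32 CPM (log2 ratio −1.33, SE 0.14, adjusted p = 0.00272), and the call held without any single library. Pdk4, an inhibitor of pyruvate dehydrogenase, fell 1.98-fold to 13.5 ± 1.08 CPM (adjusted p = 0.0238). The lipid droplet coat gene Plin2 fell 1.49-fold, from 2091 ± 20.4 to 1399 ± 15.1 CPM (adjusted p = 0.0458), a call that ended with the RLE scaling of DESeq2 (0.0513). Fabp4, a fatty acid carrier of fat cells and macrophages that is also among the adipocyte markers, rose 7.18-fold, from 5 and 14 to 85 and 55 counts (adjusted p = 0.0214; log2 ratio 2.84, and 3.64 without GFP library 2). The calls for Pdk4 (adjusted p = 0.215 and 0.148), Plin2 (0.313 and 0.29) and Fabp4 (0.193 and 0.0833) ended without GFP library 1 and likewise without GFP library 2. The median of the list was 0.33, above 0, although more of its members fell than rose.

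**Figure D5:**
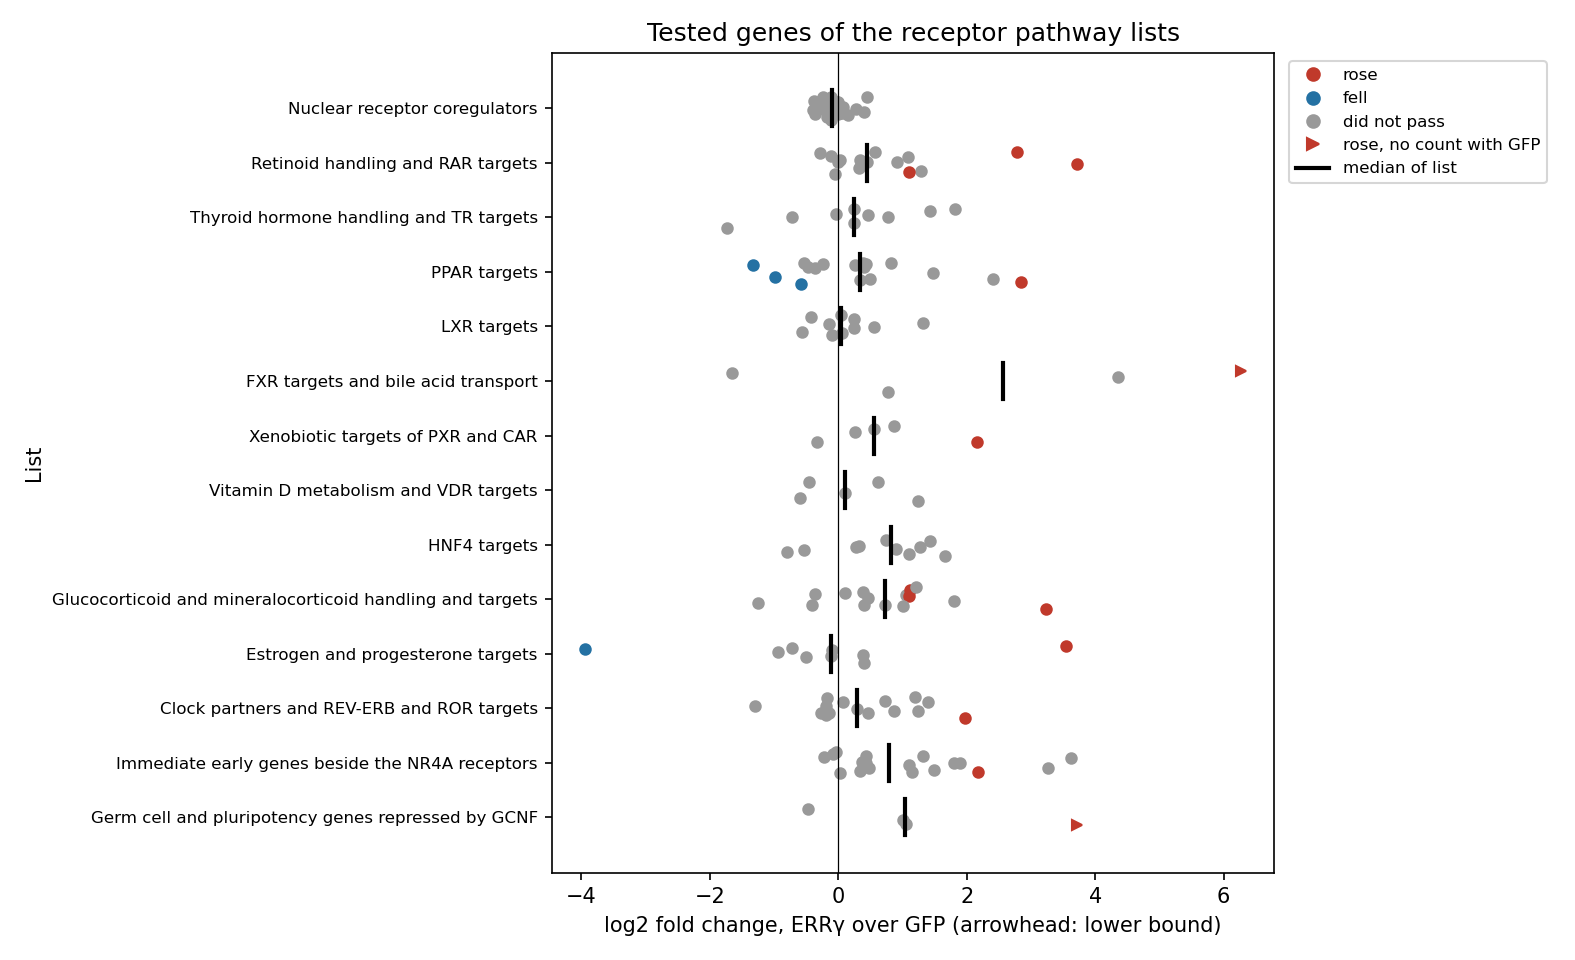
Log2 ratio, ERRγ over GFP, of each tested gene in the 14 lists of receptor targets and partners, 1 point for each gene; the vertical bar is the median of a list and an arrowhead is a lower bound for a gene with no count in either GFP library. Red and blue mark genes past the threshold, 1 to 4 in 9 of the lists and none in the coregulator, thyroid hormone, LXR, vitamin D and HNF4 lists.

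Among steroid-linked lists, glucocorticoid and mineralocorticoid handling and targets had 3 of 15 tested genes up. Scnn1a, a subunit of the epithelial sodium channel and a known mineralocorticoid target, had 100 and 92 counts against 5 and 15 (9.43-fold, log2 ratio 3.24, adjusted p = 0.00945; 4.10 without GFP library 2, and 2.73 with the call ended, adjusted p = 0.0976, without GFP library 1). Fkbp5, a chaperone cofactor that limits glucocorticoid receptor activity and is a known target of that receptor, rose 2.14-fold from 12.4 ± 0.068 to 26.6 ± 4.57 CPM (adjusted p = 0.0224, and 0.197 and 0.154 without GFP library 1 and GFP library 2). Errfi1, a feedback inhibitor of the epidermal growth factor receptor, rose 2.16-fold (log2 ratio 1.11, adjusted p = 0.0459, and 0.0537 with limma-voom; 0.59 without ERRγ library 2, and adjusted p = 0.321 and 0.243 without GFP library 1 and GFP library 2). The summed list was 1807 CPM in ERRγ library 1, 4530 CPM in ERRγ library 2, and 1490 and 1606 CPM with GFP. Most of any gene to the step between the ERRγ libraries came from Ddit4, at 522 and 1610 CPM against 443 and 588 CPM with GFP. Dusp1, which is also in the list of immediate early genes, lay at 103 and 721 CPM against 130 and 107 CPM. Neither gene passed. The receptor gene Nr3c1 itself lay lower with ERRγ, as given above, without a call. In the list of estrogen and progesterone targets 1 of 9 rose and 1 fell. The transcription factor gene Myb had 57 and 64 counts against 4 and 6 (11.7-fold, adjusted p = 0.00896, and 0.12 and 0.0884 without GFP library 1 and GFP library 2). Akr1c18, which inactivates progesterone, had 29 and 11 counts against 382 and 205 (15.3-fold lower, log2 ratio −3.94, adjusted p = 0.00477; −3.31 and 0.0659 without GFP library 1, −4.70 without ERRγ library 1). The progesterone receptor gene and the gene of a progesterone-inactivating enzyme thus moved in opposite directions.

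In the remaining lists few genes passed. The bile acid list had the corepressor gene Nr0b2 up, from no count to 263 and 213 (at least 77.2-fold, adjusted p = 0.000352), out of 4 tested, while its classical activator gene Nr1h4 had 3 to 7 counts in every library. The part of Nr1h4 in the Nr0b2 counts was not tested. The xenobiotic list had Cyp3a13 up 4.48-fold, from 29.0 ± 8.39 to 130 ± 11.1 CPM (adjusted p = 0.00154), out of 5. The clock list had Ciart, a repressor of the clock, up out of 15, at 9.98 and 27.2 CPM against 4.60 and 4.84 CPM (log2 ratio 1.97, adjusted p = 0.0439). Like Nr1d1 and Rora it was highest in ERRγ library 2, and its log2 ratio was 1.08 without that library (adjusted p = 0.0615). Its call also ended without GFP library 1 (0.297), without GFP library 2 (0.236) and with limma-voom (0.122). The list of germ cell and pluripotency genes, set beside Nr6a1 as a repressor of such genes, had 1 of 4 up, Dppa3, a gene of early embryos and germ cells, from no count to 34 and 46, so that it entered the test only through the group in which it was high (at least 13.2-fold, adjusted p = 0.00957, and 0.0959 and 0.0816 without GFP library 1 and GFP library 2). The calls for Nr0b2 and Cyp3a13 held without any single library.

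With edgeR no gene passed among 24 coregulators (median −0.105), 9 genes of thyroid hormone handling and response (0.25), 10 targets of the oxysterol receptors (0.05), 5 of vitamin D (0.11) and 10 of HNF4 (0.82). In these 5 lists edgeR's quasi-likelihood test had 1, 5, 2, 1 and 3 genes at an unadjusted p under 0.05, in the same order, where 23.1% of all genes tested were under it. DESeq2 called 1 target of the oxysterol receptors and 1 of HNF4 and none in the other 3 lists, and limma-voom called none in the 5. The coregulators, which all nuclear receptors share, summed to 1931 and 2047 CPM in ERRγ cells against 2080 and 2043 CPM in GFP cells. All 38 receptors together took 0.0775% and 0.075% of counts with ERRγ against 0.0691% and 0.0741% with GFP (exact 95% intervals 0.0758 to 0.0792, 0.0734 to 0.0767, 0.0675 to 0.0708 and 0.0725 to 0.0757).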

How the data were processed

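The authors deposited 1 table of raw counts by gene symbol for each of the 4 libraries, prepared from 500 ng of total RNA with a Lexogen QuantSeq kit, per the labels' protocols. Per the submitters' processing notes, Bowtie2, edgeR and mm10 were used, with no version named. What counted the reads, on which annotation and with which use of strand or filters, is not given in the sources used here.

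The test was that of edgeR 4.0.16 under R 4.3.3 (glmQLFit, glmQLFTest, group alone, 2 residual degrees of freedom) after filterByExpr with a minimum count of 10 and TMM scaling, over all 13070 genes kept, two-sided, with Benjamini-Hochberg adjustment. An SE is the log2 fold change divided by the square root of F. On simulated counts for this comparison with 13070 genes, 60.4% of 2-fold and 98% of 4-fold changes were called, and 0.0389% of unchanged genes. The 200 changed genes of each draw were taken only from genes with a mean of at least 5 CPM. Spread in the draws followed the trend over genes of like level, so that spread particular to a gene or a library was left out. These shares therefore do not cover genes with wider pairs than the trend gives. Alternatives were DESeq2 1.42.0, limma-voom (limma 3.58.1), other scalings and filters, a replicate block and leaving out each library. All receptors were described; of each target list up to 3 called genes were named, and all where 5 or fewer were called. The members and lists were chosen with earlier results of these data known. Positions are from GENCODE M21 and start windows from RefSeq, GRCm38. Protein sequences were not used here.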

Additional observations from a re-analysis of the deposited data

How the results depend on the processing

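Across 8 other settings that used all 4 libraries, the calls for Nr6a1 and Ppard held in each, and that for Pgr in the 7 in which it was tested, since the filter of 5 CPM removes it. With no filter on low counts, 1271 genes rose and 738 fell in the whole table, 6 receptors rose (Nr1d1, Nr6a1, Nr4a2, Pparg, Pgr and Rora) and 2 fell (Ppard and Nr2f2), and 37 listed target genes rose and 12 fell; the cause was not tested. With a mean of at least 5 CPM, 1 receptor rose. Libraries with the same number share only that number (correlation of their deviations 0.0135 over genes). With it as a replicate block 3 receptors rose, Nr1d1 being added (log2 ratio 1.29, adjusted p = 0.0312), and 1 fell; 776 genes rose and 315 fell in all, and Plin2 lost its call (adjusted p = 0.0542). Rarg, near 0 in the report, was 0.0315 with library totals, 0.0106 with limma-voom and 0.00124 with the block. Leaving out each library in turn gave 0 to 6 receptors up and 0 to 4 down, 4 to 50 listed genes up and 1 to 14 down, and 92 to 1597 genes up and 7 to 1098 down in the whole table. The log2 ratio changed sign in that way for Thrb (−0.061 to 0.35), Rara (−0.065 to 0.46), Rarg (−0.15 to 0.15), Rxrb (−0.18 to 0.042), Ppara (−0.36 to 1.48), Nr1d2 (−0.12 to 0.37), Rora (−0.37 to 1.27), Nr1h3 (−0.53 to 0.58), Vdr (−0.72 to 0.14), Hnf4a (−0.85 to 0.21), Nr2f1 (−0.30 to 1.17) and Nr4a1 (−0.715 to 1.21). With 2 libraries a group and SEs of 0.14 to 0.75 among receptors other than Pgr, differences of 2-fold or less could be missed, and also larger ones. Pparg at 2.68-fold and Nr1d1 at 2.61-fold, both with a mean of at least 5 CPM, did not pass. Of simulated 2-fold changes, 60.4% were called, in genes with a mean of at least 5 CPM. That share does not cover receptors below this level, for which larger differences could be missed.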
